A study of Mus musculus with 6 samples.

Results

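Retinoic acid, made from vitamin A, is described here through 9 genes for its uptake, binding, synthesis, breakdown and receptors. They were chosen by symbol: Stra6, Crabp1, Crabp2, Aldh1a2, Aldh1a3, Cyp26b1, Rara, Rarb and Rxra. All 9 matched a single Ensembl gene among the 33084 genes counted, and all 9 were among the 19403 that passed the low-count filter. Forebrain was dissected from mouse embryos at embryonic day 15.5. RNA was sequenced from 3 Dyrk1a+/- mice, heterozygous for an inactivated Dyrk1a allele, and from 3 wild-type (wt) mice of the same line. The labels call the libraries of a genotype biological replicates, and give no sex, litter or strain background. They also do not say which part of Dyrk1a was removed. The question is how transcript levels in the forebrain differ once 1 copy of this kinase gene is inactive.

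Retinol enters cells through the membrane receptor STRA6 and is oxidised to retinaldehyde and then, irreversibly, by aldehyde dehydrogenases to retinoic acid. Cytosolic CRABP proteins bind the acid, CYP26 enzymes degrade it, and heterodimers of retinoic acid receptors (RAR) and retinoid X receptors (RXR) carry its signal to response elements in DNA. In the embryonic mouse forebrain the meninges make retinoic acid with Aldh1a2, the lateral ganglionic eminence makes it with Aldh1a3, and Rarb is a receptor of developing striatal neurons.

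The stretches of genomic sequence show where such elements were looked for. The Rarb stretch lies before a RefSeq start of a gene known as a target of its own receptor. The others precede a RefSeq start of Aldh1a2 and of Rxra, the members with the lowest p in either direction. Each is RefSeq sequence of build GRCm38.p6, written 5′ to 3′ on the gene's strand. Capitals mark half-sites AGGTCA and AGTTCA, and GGGTCA and GGTTCA, searched on both strands, so that a half-site on the opposite strand reads as its reverse complement.
Rarb, chr14:16575507-16575536, minus strand: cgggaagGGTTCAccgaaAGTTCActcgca
Aldh1a2, chr9:71215539-71215788, plus strand: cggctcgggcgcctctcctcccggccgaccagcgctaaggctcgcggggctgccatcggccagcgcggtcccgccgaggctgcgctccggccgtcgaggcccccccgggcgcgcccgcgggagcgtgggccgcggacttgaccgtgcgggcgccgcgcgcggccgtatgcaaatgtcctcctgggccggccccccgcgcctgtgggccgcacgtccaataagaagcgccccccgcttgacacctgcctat
Rxra, chr2:27709042-27709291, plus strand: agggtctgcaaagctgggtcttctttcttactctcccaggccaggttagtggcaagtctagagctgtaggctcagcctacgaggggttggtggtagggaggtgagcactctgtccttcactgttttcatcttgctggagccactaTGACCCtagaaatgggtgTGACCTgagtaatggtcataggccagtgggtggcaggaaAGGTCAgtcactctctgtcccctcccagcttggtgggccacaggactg

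The Rarb stretch holds a direct repeat of 2 half-sites with a spacer of 5 bases, the classical arrangement of a retinoic acid response element. It runs from 53 to 37 bases before the RefSeq start of Rarb, and its half-sites read in the direction of the gene. Of 32851 RefSeq promoter windows, 29 (0.0883%) held such a repeat with this spacer in the 250 bases before the start, while 38.6% held at least 1 half-site. That Rarb start lies 243680 bases inside the gene as GENCODE annotates it, and all 250 bases before it are exonic in a GENCODE transcript. The Aldh1a2 window lies just outside the gene and held none of the 4 half-sites. The Rxra window precedes the second of the gene's 2 RefSeq starts, in an intron, and held 3 half-sites with no direct repeat at spacers of 1, 2 or 5 bases. The window before the first Rxra start, not printed here, held none of the 4 half-sites. Of the 9 members 7 had a RefSeq window, and a Rara window held 4 half-sites with no direct repeat. Counts per gene do not tell apart transcripts from different starts.

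Library totals ran from 18699434 to 25012356 counts in Dyrk1a+/- and from 25270710 to 32865708 in wt, so that every Dyrk1a+/- library was shallower than every wt library. Lhx2, Neurod2 and the other markers of a list for the telencephalon were present in every library, at a summed 692 to 788 CPM (counts scaled to the effective library size) in Dyrk1a+/- and 646 to 730 CPM in wt. Of 10 counted genes for midbrain, hindbrain and spinal cord, 9 averaged under 1 CPM, the exception being Gbx2, which the thalamus also expresses. Dyrk1a had 148, 147 and 158 CPM in Dyrk1a+/- and 176, 186 and 160 CPM in wt. Its log2 fold change was -0.20 (SE 0.079; adjusted p by edgeR = 0.59), so the targeted gene did not pass the test, although the genotypes did not overlap. A pair of libraries, Dyrk1a+/- replicate 2 and wt replicate 3, stood apart from the other 4 along principal component 1 (34% of variance). Their share of structural RNAs (7SK and the RNAs of RNase P and MRP) was also highest, at 4% and 4.46% of counts against 2.57% to 3.01% in the other 4. Differences within this pair and within the other 4 libraries are therefore given for the members.

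With p-values of edgeR's quasi-likelihood fit adjusted by the Benjamini-Hochberg method over all genes, 0 of the 9 members were under 0.05, as were 0.0103% of all genes tested. By DESeq2 0 passed as well. At an unadjusted p under 0.05 there was 1 of 9, Aldh1a2, where the share over all genes was 7.88% (4.61% lower and 3.27% higher in Dyrk1a+/-). Aldh1a2, Cyp26b1 and Stra6 were lower and Rxra was higher in all 3 Dyrk1a+/- libraries than in any wt library. That is 4 of 9 members, while the genotypes did not overlap in 14.0% of all genes tested (7.49% lower and 6.53% higher in Dyrk1a+/-). Fitted log2 fold changes were negative for 6 members and positive for 3, with a median of -0.16, against 0.005 over all genes. In whole tissue, fewer cells of a type and less RNA per cell cannot be told apart.

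**Figure D1:**
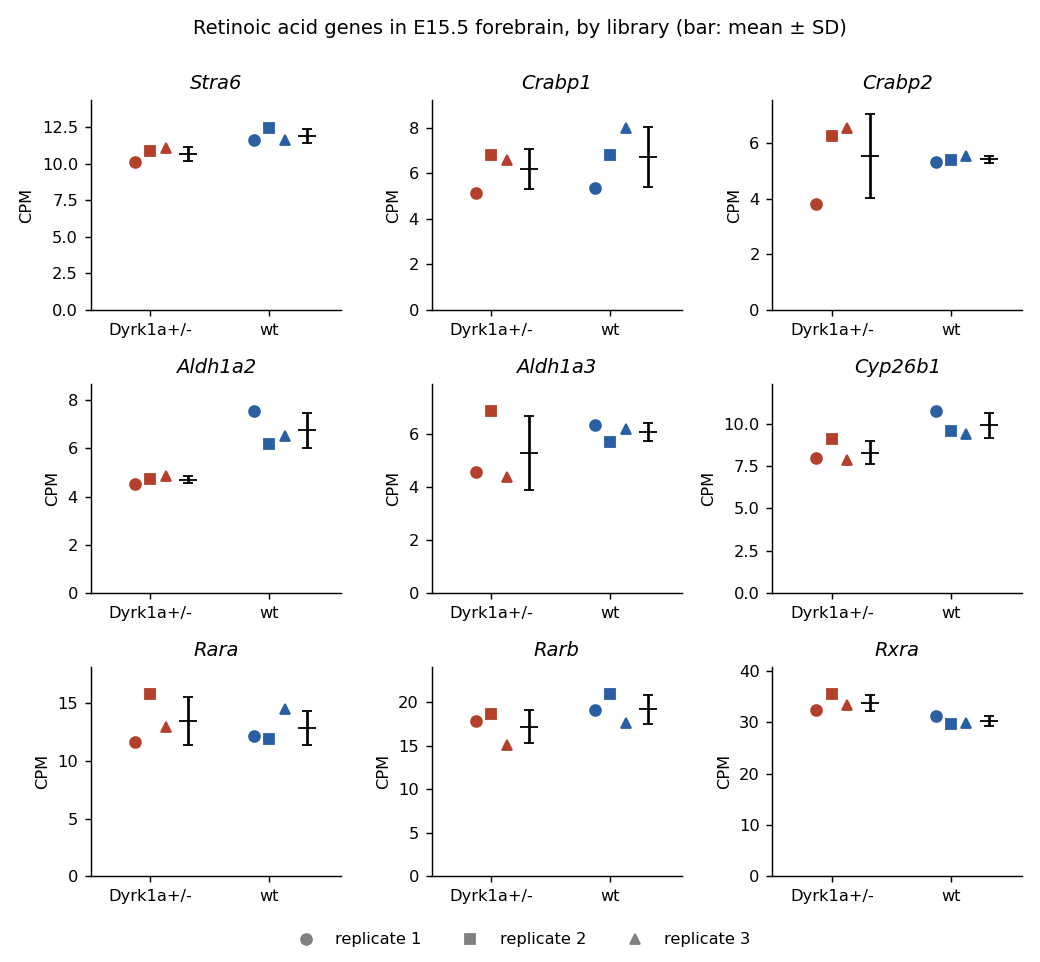
CPM of each member (linear axes from 0) in the 3 Dyrk1a+/- libraries (red) and the 3 wt libraries (blue), with symbols for the replicate number and bars for mean ± SD. The red points of Aldh1a2, Cyp26b1 and Stra6 all lie below the blue ones, those of Rxra all lie above, and the genotypes overlap in the other 5 members.

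Uptake and binding proteins showed small or no differences. Stra6 (ENSMUSG00000032327, GRCm38 chromosome 9, 58063788 to 58153996), the receptor that takes retinol from its plasma carrier, had 10.1, 10.9 and 11.1 CPM in Dyrk1a+/- and 11.6, 12.5 and 11.6 CPM in wt. The highest Dyrk1a+/- library lay below the lowest wt library, by less than 1 CPM. The log2 fold change was -0.16 (SE 0.106; adjusted p by edgeR = 0.765). Log2 CPM differed by -0.095 inside the pair and by -0.18 among the other 4 libraries. Ccdc33, on the opposite strand, overlaps the Stra6 locus with no shared exonic base.

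Crabp1 (ENSMUSG00000032291, chromosome 9, 54764748 to 54773110), a cytosolic retinoic acid binding protein, had 5.16, 6.79 and 6.61 CPM in Dyrk1a+/- and 5.36, 6.82 and 8.01 CPM in wt. Replicate 1 was the lowest library in both genotypes, and the groups overlapped. Its log2 fold change was -0.12 (SE 0.182; adjusted p by edgeR = 0.93), with a 95% interval of -0.53 to 0.30, and it was 0.029 without wt replicate 3. Crabp2 (ENSMUSG00000004885, chromosome 3, 87948666 to 87953376), which delivers retinoic acid to nuclear receptors, had 3.81, 6.27 and 6.56 CPM in Dyrk1a+/- and 5.30, 5.39 and 5.55 CPM in wt. The wt libraries lay close together, while Dyrk1a+/- replicate 1 was below all of them and replicates 2 and 3 above. The log2 fold change of Crabp2 was 0.036 (SE 0.2; adjusted p by edgeR = 0.981), and it turned negative without Dyrk1a+/- replicate 2 (-0.067) or 3 (-0.096), and in the 4 libraries outside the pair (-0.049). Genotypes could differ by up to 1.40-fold in Crabp2 within its 95% interval of 0.748 to 1.40.

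Of the synthesis enzymes, Aldh1a2 had the lowest p of the members, ranking 167 of 19403 genes. Aldh1a2 (ENSMUSG00000013584, chromosome 9, 71215789 to 71296243), the main retinaldehyde dehydrogenase of mouse embryos, had 4.54, 4.74 and 4.85 CPM in Dyrk1a+/- and 7.56, 6.18 and 6.51 CPM in wt. These values came from 94, 118 and 91 counts in Dyrk1a+/- and 248, 156 and 182 counts in wt. All 3 Dyrk1a+/- libraries lay below all wt libraries, and they spread less (SD 0.16 CPM) than wt (SD 0.719 CPM). The level in Dyrk1a+/- was 0.697 of that in wt, with a 95% interval of 0.562 to 0.864. The log2 fold change was -0.52 (SE 0.137; edgeR unadjusted p = 0.00425, adjusted p = 0.483). By DESeq2 the adjusted p was 0.366, and an exact permutation test of mean CPM (2-sided) gave p = 0.1, which no design of 3 against 3 can go below. Its difference in log2 CPM was -0.42 inside the pair and -0.50 among the other 4. With 1 library left out its log2 fold change ran from -0.58 to -0.43, with unadjusted p values of 0.00622 to 0.0222.

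Aldh1a3 (ENSMUSG00000015134, chromosome 7, 66390890 to 66427517), the dehydrogenase of the lateral ganglionic eminence, had 4.58, 6.88 and 4.37 CPM in Dyrk1a+/- and 6.34, 5.71 and 6.19 CPM in wt. Dyrk1a+/- replicate 2 was the highest of all 6 libraries, and the other 2 Dyrk1a+/- libraries were the lowest. Its log2 fold change was -0.20 (SE 0.187; adjusted p by edgeR = 0.847). The sign depended on the libraries: the difference was 0.14 within the pair and -0.39 within the other 4. Without Dyrk1a+/- replicate 2 the log2 fold change was -0.44 (edgeR unadjusted p = 0.0202, adjusted p = 0.507), and without Dyrk1a+/- replicate 3 it was -0.081.

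Cyp26b1 (ENSMUSG00000063415, chromosome 6, 84571414 to 84593908), a cytochrome P450 that degrades retinoic acid, had 7.96, 9.09 and 7.83 CPM in Dyrk1a+/- and 10.8, 9.59 and 9.41 CPM in wt. No Dyrk1a+/- library reached the lowest wt library, and replicate 2 came within 0.4 CPM of it. The log2 fold change was -0.26 (SE 0.122; edgeR unadjusted p = 0.0656, adjusted p = 0.672). The difference was -0.048 within the pair and -0.34 within the other 4 libraries, where the fit gave -0.37 (adjusted p by edgeR = 0.341).

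The 3 receptors differed little between genotypes. Rara (ENSMUSG00000037992, chromosome 11, 98927818 to 98974942) had 11.7, 15.8 and 12.95 CPM in Dyrk1a+/- and 12.1, 11.9 and 14.5 CPM in wt. Its highest values were those of the pair that stood apart, Dyrk1a+/- replicate 2 and wt replicate 3, and the genotypes overlapped. The log2 fold change of Rara was 0.071 (SE 0.143; adjusted p by edgeR = 0.947), and it was -0.062 without Dyrk1a+/- replicate 2.

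Rarb (ENSMUSG00000017491, chromosome 14, 16430839 to 16819156), the receptor gene with the direct repeat printed above, had 17.9, 18.7 and 15.1 CPM in Dyrk1a+/- and 19.1, 20.96 and 17.6 CPM in wt. The genotypes overlapped through Dyrk1a+/- replicates 1 and 2, which lay above wt replicate 3. Rarb had a log2 fold change of -0.16 (SE 0.118; adjusted p by edgeR = 0.792), with a 95% interval from 0.746 to 1.08 of the wt level. It differed by 0.084 within the pair and by -0.28 within the other 4 libraries. Without wt replicate 2 it was at -0.093, and without Dyrk1a+/- replicate 3 at -0.072. Rarb is uncertain as a measurement, because Top2b, on the opposite strand, shares 1793 exonic bases with it and had 100748 counts over all libraries against 2765 for Rarb. How the counting used strand is not given in the sources used here. Top2b had 722 ± 71.6 CPM in Dyrk1a+/- and 638 ± 64.7 CPM in wt (SD, n = 3 each), a log2 fold change of 0.18 (SE 0.102; adjusted p by edgeR = 0.722).

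Rxra (ENSMUSG00000015846, chromosome 2, 27676440 to 27762957), a partner shared by RARs and other nuclear receptors, had 32.5, 35.5 and 33.4 CPM in Dyrk1a+/- and 31.3, 29.7 and 29.8 CPM in wt. All 3 Dyrk1a+/- libraries lay above all wt libraries. The Rxra log2 fold change was 0.16 (SE 0.079; edgeR unadjusted p = 0.0743, adjusted p = 0.684), and it ran from 0.12 to 0.19 with 1 library left out. The difference was 0.25 within the pair and 0.11 within the other 4 libraries.

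**Figure D2:**
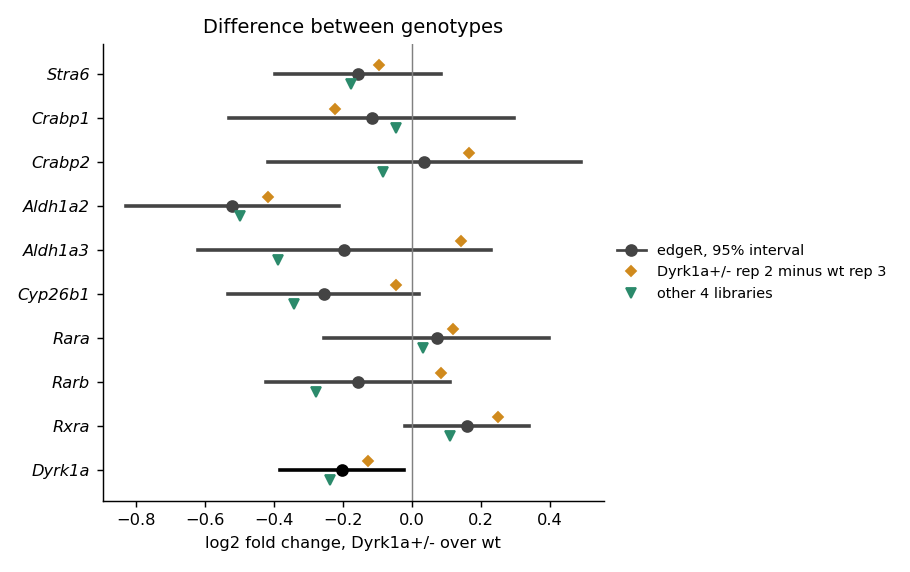
Log2 fold changes of Dyrk1a+/- over wt for the 9 members and Dyrk1a (circles, lines: edgeR's estimate and 95% interval), with the log2 CPM difference within the pair of libraries that stood apart (diamonds) and within the other 4 (triangles). Among the members only the Aldh1a2 interval excludes 0, and the diamond and triangle lie on opposite sides of 0 for Crabp2, Aldh1a3 and Rarb.

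Divided by exon length, Crabp1 had the highest level of the 9 and Aldh1a3 the lowest, in either genotype. Crabp1 was at 7.72 ± 1.11 CPM per kb in Dyrk1a+/- and 8.39 ± 1.65 CPM per kb in wt (SD, n = 3 each). Aldh1a3 was at 1.143 ± 0.301 CPM per kb in Dyrk1a+/- and 1.32 ± 0.0718 CPM per kb in wt. The order of levels in Dyrk1a+/- was Crabp1, Rxra, Crabp2, Rarb, Rara, Aldh1a2, Stra6, Cyp26b1 and Aldh1a3. In wt Aldh1a2, at 2.98 ± 0.318 CPM per kb, stood level with Rara, at 2.94 ± 0.334 CPM per kb, and their libraries overlapped. In Dyrk1a+/- Aldh1a2 was at 2.08 ± 0.0706 CPM per kb, below every Rara library of that genotype (mean 3.09 ± 0.484 CPM per kb). Other neighbours whose libraries overlapped were Crabp1 and Rxra, Crabp2 and Rarb, Rarb and Rara, and Cyp26b1 and Aldh1a3 in Dyrk1a+/-, and Stra6 and Cyp26b1 in wt. Among all genes tested, mean levels per kb ranked from the 25th percentile for Aldh1a3 to the 65.9th for Crabp1. The length of all annotated exons was used. It includes Stra6 exons that begin 65300 bases before the first RefSeq start, so that the level per kb of Stra6 may be too low. Rara exons likewise begin 9878 bases before its first RefSeq start, and Rarb exons 243680 bases before its RefSeq start. Rarb also shares 1793 exonic bases with Top2b, so its level per kb and its place in the order are uncertain.

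**Figure D3:**
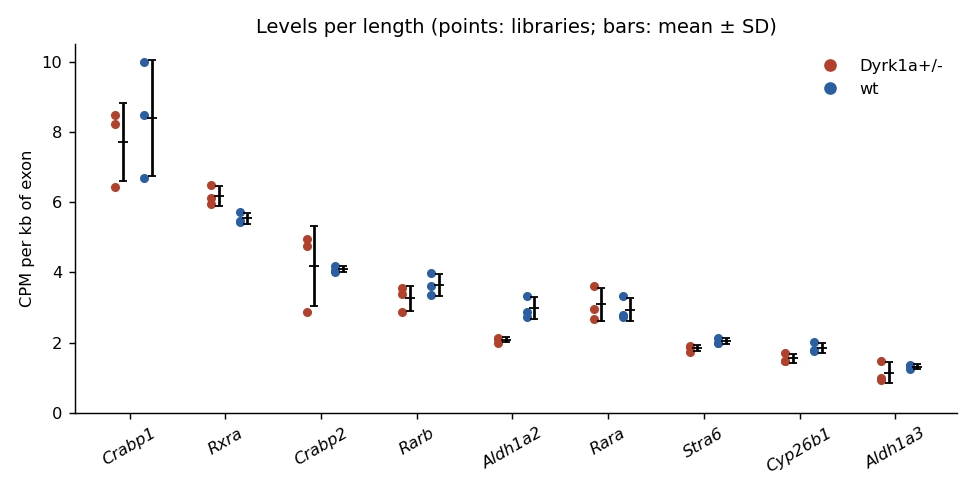
CPM per kb of annotated exon for the 9 members, ordered by their wt mean, with a point for each library of Dyrk1a+/- (red) and wt (blue) and bars for mean ± SD. Aldh1a2 in wt lies level with Rara, and in Dyrk1a+/- it lies below it.

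Other genes of the pathway were close to the whole table in their share of low p values. Of 29 listed genes 28 were counted and 22 tested, and 0 passed edgeR's test over all genes. By fitted value 7 were higher and 15 lower in Dyrk1a+/-, with a median log2 fold change of -0.03. An unadjusted p under 0.05 was found for 2 of the 22 (9.09%), against 7.88% of all genes tested. Among the enzymes of retinol and retinaldehyde, Dhrs3, which returns retinaldehyde to retinol, had 6.32, 5.19 and 5.65 CPM in Dyrk1a+/- and 6.80, 7.13 and 7.37 CPM in wt. The genotypes did not overlap, and its log2 fold change was -0.31 (SE 0.131; edgeR unadjusted p = 0.0410, adjusted p = 0.615). The most abundant enzyme by CPM in that role, Adh5, had 132 CPM in Dyrk1a+/- and 125 CPM in wt. Rdh10, which makes retinaldehyde in embryos, had a log2 fold change of 0.06 (SE 0.126). Aldh1a1, a further retinaldehyde dehydrogenase, ran from 1.21 to 2.61 CPM in Dyrk1a+/- and from 0.945 to 3.804 CPM in wt.

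The carriers, degrading enzymes and receptors outside the 9 had no gene at an unadjusted p under 0.05. Transthyretin, Ttr, which carries the retinol binding protein in plasma and is abundant in choroid plexus, had 251 to 397 CPM in Dyrk1a+/- and 327 to 398 CPM in wt. Fabp5, a fatty acid binding protein that can also bind retinoic acid, had a log2 fold change of -0.16 (SE 0.126). Cyp26a1 had 0.143 CPM or less in every library. Of the receptors, Rxrg had 11.002, 11.4 and 5.92 CPM in Dyrk1a+/- and 12.6, 11.2 and 11.9 CPM in wt, so that its log2 fold change of -0.33 (SE 0.218) came with a single low library, Dyrk1a+/- replicate 3. Rarg and Rxrb, the other receptor genes of the 2 families, were at -0.01 (SE 0.123) and 0.054 (SE 0.0943). Among the cofactors, the ligand-dependent corepressor Nrip1 had 68.4, 62.1 and 63.5 CPM in Dyrk1a+/- and 78.5, 81.7 and 67.2 CPM in wt, with a log2 fold change of -0.23 (SE 0.0898; edgeR unadjusted p = 0.031, adjusted p = 0.591). The corepressor Ncor1 was the most abundant cofactor by CPM, at 400.1 CPM in Dyrk1a+/- and 368 CPM in wt (log2 fold change 0.12, SE 0.0687), and its groups did not overlap.

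**Figure D4:**
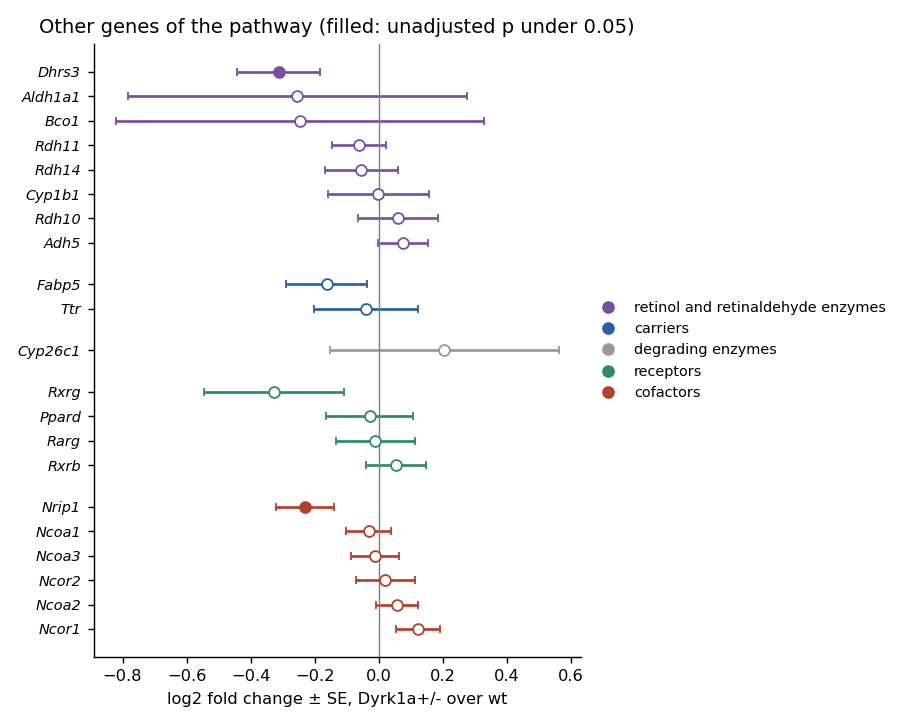
Log2 fold changes (± SE) of Dyrk1a+/- over wt for 21 of the 22 tested pathway genes outside the 9 members, grouped by role, with filled circles for an unadjusted p under 0.05. Dhrs3 and Nrip1, both lower in Dyrk1a+/-, are the 2 filled genes.

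Genes that retinoic acid induces in one tissue or another were listed separately, with earlier results of these data known, so their shares are not a test. Of 13, 8 were tested, and the genes near 0 included Cyp26a1, Stra8, Hoxb1 and Cdx1. Of the 8, 7 were lower and 1 higher in Dyrk1a+/- by fitted value, with a median log2 fold change of -0.25 against 0.005 over all genes. Over all genes 0 passed edgeR's test. At an unadjusted p under 0.05 by edgeR were 3 of the 8 (37.5%), against 7.88% of all genes tested (4.61% lower). All 3 were lower: Nrip1, Dhrs3 and Tgm2. Tgm2, a transglutaminase, had 9.02, 10.1 and 10.2 CPM in Dyrk1a+/- and 10.9, 11.6 and 14.0 CPM in wt, a log2 fold change of -0.32 (SE 0.131; adjusted p by edgeR = 0.607). Ret, a receptor tyrosine kinase, did not overlap either (-0.27, SE 0.131). Chosen after their values were seen, the abundant homeobox genes Meis1 and Meis2 were at -0.028 (SE 0.0776) and 0.09 (SE 0.103). Dhrs3 and Nrip1 are also in the pathway list, so these are not separate counts.

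Markers of the cells that make and receive retinoic acid were set beside the members. Of 24 genes of meningeal fibroblasts, 19 were lower and 5 higher in Dyrk1a+/-, and their log2 fold changes had a median of -0.24. An unadjusted p under 0.05 came up for 8 (33.3%), all lower. The list was chosen with earlier results of these data known, so this share is a description and not a test. In the whole table edgeR put 7.88% of genes under that value, 4.61% lower and 3.27% higher. Chosen after its value was seen, the transcription factor gene Foxc1, required for meningeal development, had a log2 fold change of -0.024 (SE 0.158). The list summed to 714, 681 and 722 CPM in Dyrk1a+/- and 921, 793 and 857 CPM in wt, with no overlap. No gene of it was at 0, and 1 averaged under 1 CPM. Lowest in p were Ptgds, the only gene of the list to pass edgeR's test over all genes (log2 fold change -1.15, SE 0.109; adjusted p = 0.0238), then the matrix genes Postn (-0.53, SE 0.114) and Col6a3 (-0.49, SE 0.118). Leaving out Dyrk1a+/- replicate 1 or 3, or wt replicate 1 or 2, left 0 genes called in the whole table, Ptgds included. Aldh1a2 and the sum of this list were both lower in Dyrk1a+/-, while 5 genes of the list were higher. The part of these cells in the Aldh1a2 difference was not tested.

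**Figure D5:**
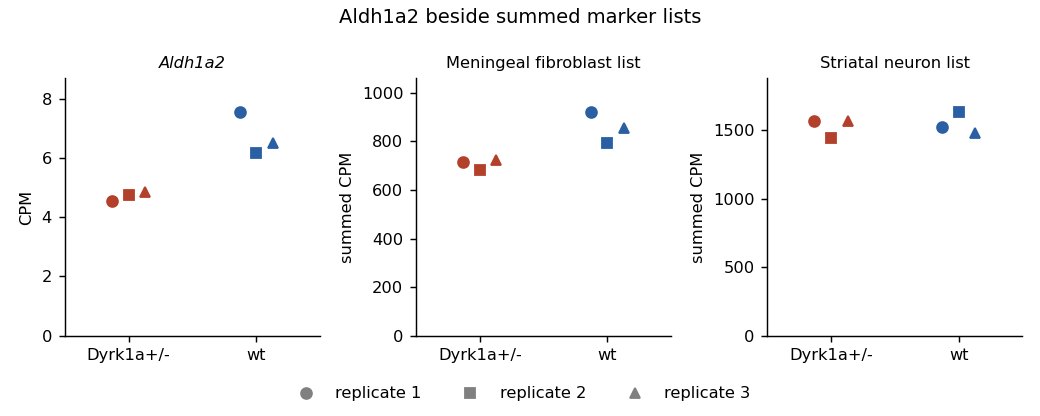
CPM of Aldh1a2 and summed CPM of 24 meningeal fibroblast genes and 24 striatal projection neuron genes in the 3 Dyrk1a+/- libraries (red) and the 3 wt libraries (blue), on linear axes from 0. The genotypes do not overlap for Aldh1a2 or the meningeal sum, where wt replicate 1 is highest in both, and they overlap for the striatal sum.

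For Rarb and Aldh1a3 the markers set beside them are those of striatal neurons and of the ganglionic eminences. Of 24 striatal genes, 18 were lower and 6 higher in Dyrk1a+/-, and their log2 fold changes had a median of -0.13. Under 0.05 in unadjusted p were 7 (29.2%), all lower, where edgeR gave such a p to 7.88% of the whole table (4.61% lower). This list too was chosen with earlier results of these data known, and its share is not a test. The list summed to 1445 to 1566 CPM in Dyrk1a+/- and 1479 to 1632 CPM in wt, and the genotypes overlapped. The lowest p values were those of the opioid receptor Oprm1 (-0.50, SE 0.129) and of Rgs9 (-0.44, SE 0.134), and no gene of the list passed edgeR's test over all genes. Their part in the Rarb values was not tested. Of 11 tested genes of the ganglionic eminences, not of progenitors or of the lateral one alone, 9 were higher and 2 lower. Their median was 0.11, with 0 at an unadjusted p under 0.05 by edgeR. In that list Gsx2, which patterns the lateral ganglionic eminence, had a log2 fold change of 0.46 (SE 0.25) and Dlx1 one of 0.17 (SE 0.0986).

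Other cell types and neighbouring tissues that could supply these transcripts were counted in the same way. Of 9 genes of pericytes and mural cells 9 were lower, with a median of -0.18 and summed levels of 159 to 195 CPM in Dyrk1a+/- and 199 to 212 CPM in wt. Choroid plexus genes, 2 higher and 9 lower, had a median of -0.066 and overlapping sums of 346 to 502 CPM in Dyrk1a+/- and 432 to 508 CPM in wt. Endothelial genes, 3 higher and 8 lower, had a median of -0.017. Microglial and macrophage genes, 1 higher and 9 lower, had a median of -0.13 and sums of 79.6 to 91.3 CPM in Dyrk1a+/- and 96.8 to 105 CPM in wt. Erythroid genes, 2 higher and 7 lower, had a median of -0.42 and sums of 586 to 744 CPM in Dyrk1a+/- and 751 to 949 CPM in wt. The sums of pericyte, microglial and erythroid genes thus did not overlap between genotypes, as the meningeal sum did not, and their part in the values of the members was not tested. Hbb-y, an embryonic globin gene higher in Dyrk1a+/-, had 21.5, 22.8 and 82.4 CPM in Dyrk1a+/- and 4.48, 6.54 and 9.52 CPM in wt, and Dyrk1a+/- replicate 3 stood far above all other libraries. Dorsal cortical genes, 8 higher and 5 lower, had a median of 0.025. At an unadjusted p under 0.05 by edgeR were 4 of 9 tested erythroid genes (44.4%), 3 lower and 1 higher. Of dorsal cortical genes there were 4 of 13 (30.8%), 3 higher and 1 lower, and of microglial genes 2 of 10 (20%), both lower. Pericyte genes had 1 of 9, choroid plexus genes 1 of 11 and endothelial genes 0 of 11, against 7.88% of all genes tested. For eye and olfactory epithelium, tissues rich in Aldh1a3 and close to the forebrain, 11 genes summed to 9.75 to 11.8 CPM in Dyrk1a+/- and 10.4 to 11.5 CPM in wt. Of these 6 averaged under 1 CPM, while Crx, a photoreceptor transcription factor gene, averaged 2.54 CPM in Dyrk1a+/- and 2.76 CPM in wt. Their part in the Aldh1a3 values was not tested.

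By Pearson correlation of log2 CPM over the 6 libraries, the genes most like Aldh1a2 were Entpd3 (r = 0.997), Tmc4 (0.994) and Sema4d (0.991). Those most like Aldh1a3 were Afg3l2 (0.991), Atp6v0e2 (0.99) and Spats2l (0.99), and those most like Rarb were Tusc3 (0.99), Npas4 (0.988) and Ppp2r2b (0.987). High values were common over these 6 libraries, in which genotype and depth go together: of 16772 genes compared, 180 exceeded 0.9 with Aldh1a2, 308 with Aldh1a3 and 127 with Rarb.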

How the data were processed

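The deposited values are raw counts per Ensembl gene in 6 forebrain libraries. Per the submitters' processing notes HISAT2, SAMtools 1.9 and HTSeq 0.9.1 were used with GRCm38 (mm10), with settings not given in the sources used here. Per the labels' protocols, libraries were stranded total RNA after rRNA depletion, although the molecule label says polyA RNA. Symbols, coordinates and exon lengths came from GENCODE M21, which held 32888 of the 33084 gene IDs. Genes passing filterByExpr were fitted with edgeR 4.0.16 (R 4.3.3; TMM, quasi-likelihood test, genotype as the only term), and p-values were adjusted by Benjamini-Hochberg over 19403 genes. CPM used effective library sizes; log2 CPM had 0.5 added. DESeq2 1.42.0, other filters, scalings, a replicate block, a term for the pair of libraries and leaving out each library were alternatives. Fits were tested on simulated data, and no library was a copy of another (chi-square per degree of freedom 4.86 to 32.4). The named genes were the members, pathway genes at an unadjusted p under 0.05 or most abundant in their role, and the 3 genes of lowest p in the marker lists; others are named for their role, and a few that the rule would name are not reported here. Members and lists were chosen with earlier results of these data known. At 79 to 248 counts per library, Aldh1a2, Aldh1a3, Crabp1 and Crabp2 carry the largest counting error of the members.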

Additional observations from a re-analysis of the deposited data

How the results depend on the processing

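Of the members, 0 were called under any alternative, and the members whose genotypes did not overlap numbered 4 with CPM on plain totals too. Genes called over the whole table numbered 2, against 30 by DESeq2, 4 with no low-count filter, 6 when the pair was a term in the fit, 6 in the 4 libraries outside it and 0 to 5 with 1 library left out. With the replicate block 0 genes were called (edgeR; 1110 at an unadjusted p under 0.05), and the block changed no call of a member. Same-numbered libraries deviated together in only 1 of 3 pairs (r = 0.191, -0.317 and -0.145), so the numbers were not taken to pair them. Members at an unadjusted p under 0.05 numbered 3 with the pair term, 4 in the 4 libraries outside the pair and 1 to 3 with 1 library left out (3 without Dyrk1a+/- replicate 2), against 1. The share of all genes at that p was higher under these settings too: 15.7% with the pair term, 12.9% in the 4 libraries and 8.92% without Dyrk1a+/- replicate 2, against 7.88%. Signs turned for Crabp2 in the 4 libraries outside the pair (-0.049) and without Dyrk1a+/- replicates 2 (-0.067) or 3 (-0.096), for Rara without Dyrk1a+/- replicate 2 (-0.062), and for Crabp1 without wt replicate 3 (0.029). With 1 library left out Crabp2 ran from -0.096 to 0.24, Rara from -0.062 to 0.17 and Crabp1 from -0.26 to 0.029. Over 15 alternatives Aldh1a2 ran from -0.58 to -0.43, with edgeR or DESeq2 adjusted p values of 0.137 to 0.999. Depth limits Aldh1a2, Aldh1a3, Crabp1 and Crabp2 most.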

Other observations

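The ratio of Aldh1a2 to Cyp26b1 counts, chosen after the values of both were seen, was 0.57, 0.522 and 0.619 in Dyrk1a+/- and 0.703, 0.645 and 0.692 in wt, and was given no test. Gm15971, a processed pseudogene inside Dyrk1a on the same strand, had 5.24 ± 0.388 CPM in Dyrk1a+/- and 4.06 ± 0.0952 CPM in wt (SD, n = 3 each), a log2 fold change of 0.37 (SE 0.136; adjusted p by edgeR = 0.575).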
